A study of Homo sapiens with 6 samples.

Results

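The clustered replication-dependent histone genes were followed through 3 derivatives of HEK293, a human embryonic kidney line transformed with adenovirus DNA. Members were array rows whose only gene symbol was a numbered gene of the H2AC, H2BC, H3C or H4C families or one of the linker histones H1-1 to H1-5. The rule found 45 rows for 45 genes among 15492 rows, with 5 genes of class H1, 11 of H2A, 10 of H2B, 8 of H3 and 11 of H4. No level filter was applied. A mean under the 25th percentile of row means (5.03 log2) marked 12 members as dim rows, which leaves 33 brighter ones.

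The lines carried a tet-on construct for wild-type APE1 (wtAPE1), for a ubiquitin-APE1 fusion (ubAPE1) or the pcDNA-FRT empty vector (vector). APE1 is the main abasic site endonuclease of base excision repair. Each line was cultured with 2 µg per ml doxycycline for 16 h or without the drug, and all cultures contained puromycin at 1 µg per ml. Total RNA was measured on Affymetrix whole-transcript arrays. Each of the 6 groups is 1 deposited column, the authors' mean of 3 biological replicates per the labels and the series design, so the spread between replicates is not in these values. Whether a line is 1 clone is not given in the sources used here.

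Each nucleosome wraps DNA around a core of H2A, H2B, H3 and H4, and H1 binds the linker DNA. Cells make most of this protein in S phase from short intronless genes that lie in clusters. Their mRNAs end in a stem-loop, bound by SLBP, instead of a poly(A) tail, and are degraded when DNA synthesis stops. NPAT, a substrate of cyclin E and CDK2, switches on their transcription, and the U7 small nuclear ribonucleoprotein guides the cut that forms the 3′ end. H4C1, H4C4, H2BC4, H2AC8 and H2AC21, which mark the group, were all measured in every column.

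Of the members, 40 lie on chromosome 6, 4 on chromosome 1 (H2AC21, H2AC25, H2BC21 and H2BC26) and 1 on chromosome 12 (H4C16). Promoter sequences from RefSeq (GRCh38.p14; 250 bases before to 50 after the annotated start) matched 41 members. They were searched on both strands for 4 motifs. The TATA box was read as TATAA and was found in 38 of 41 member promoters (92.7%), against 21.1% of all 27305 promoters. The letters CCAAT, bound by the factor NF-Y, were found in 35 (85.4%), against 35.7% of all. The octamer ATTTGCAT, which binds OCT1, was found in 8 of 10 H2A and 7 of 10 H2B promoters and in no H1, H3 or H4 promoter, against 1.8% of all promoters. The windows of 6 neighbouring H2A and H2B pairs overlap. A match of any motif in such an overlap counts for both genes, so these promoters are not independent. The core of Site II of H4 promoters, which binds HINFP, was read as GGTCCG. It was found in 8 of 9 H4 promoters, 1 H2B and 1 H3 promoter, against 11.2% of all promoters. Matches of different motifs overlapped in 2 member promoters, and in 9 a motif overlapped its own reverse complement.

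Promoters of 4 members are shown because the results turn on these genes. H4C4 (chr6:26189063-26189362, minus strand) had a lower level with doxycycline in every line. H2BC4 (chr6:26123877-26124176, minus strand) had the lowest response in vector cells. H2AC8 (chr6:26216671-26216970, plus strand) and H2AC16 (chr6:27865067-27865366, plus strand) were lower in both APE1 lines. Capitals mark every match to the motifs named above, on either strand.
H4C4: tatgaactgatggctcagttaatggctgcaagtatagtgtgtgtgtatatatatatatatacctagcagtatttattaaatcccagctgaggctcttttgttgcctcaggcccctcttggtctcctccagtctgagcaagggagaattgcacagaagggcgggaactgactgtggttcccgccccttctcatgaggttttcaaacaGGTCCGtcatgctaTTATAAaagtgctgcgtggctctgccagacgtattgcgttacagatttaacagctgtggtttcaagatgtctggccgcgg
H2BC4: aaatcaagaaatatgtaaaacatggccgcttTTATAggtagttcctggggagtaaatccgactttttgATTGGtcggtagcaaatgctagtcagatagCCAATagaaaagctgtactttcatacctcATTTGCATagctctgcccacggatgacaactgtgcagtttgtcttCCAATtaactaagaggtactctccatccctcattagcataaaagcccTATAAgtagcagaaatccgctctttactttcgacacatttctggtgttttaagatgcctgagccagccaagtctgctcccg
H2AC8: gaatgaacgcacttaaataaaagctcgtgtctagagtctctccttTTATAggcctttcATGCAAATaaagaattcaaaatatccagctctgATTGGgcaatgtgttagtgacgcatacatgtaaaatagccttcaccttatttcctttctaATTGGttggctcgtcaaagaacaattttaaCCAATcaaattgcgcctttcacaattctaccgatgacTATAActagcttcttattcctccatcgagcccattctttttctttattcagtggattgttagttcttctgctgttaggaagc
H2AC16: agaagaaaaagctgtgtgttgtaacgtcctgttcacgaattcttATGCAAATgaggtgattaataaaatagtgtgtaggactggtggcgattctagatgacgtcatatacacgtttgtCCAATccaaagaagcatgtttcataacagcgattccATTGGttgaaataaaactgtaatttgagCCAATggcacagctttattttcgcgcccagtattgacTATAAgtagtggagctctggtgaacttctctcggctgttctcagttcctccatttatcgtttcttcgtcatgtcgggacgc
In these windows the H4 promoter holds the Site II core upstream of its TATA box and no CCAAT, and the H2A and H2B promoters hold CCAAT on both strands and an octamer.

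APEX1, the gene of APE1, served as the check of the transgene. It stood at 10.67 log2 with and 9.50 without doxycycline in wtAPE1 cells, at 10.58 and 9.82 in ubAPE1 cells and at 9.66 and 9.54 in vector cells, centred responses of 1.13, 0.89 and 0.17. The 6 columns had medians between 6.07 and 6.28 log2, so each column was centred on its own median before differences were taken. A response is the centred log2 level with doxycycline minus that without. Centring moved the responses by -0.05 (wtAPE1), 0.14 (ubAPE1) and 0.05 (vector) relative to the deposited values. Of 8 kidney epithelial markers CDH1 was dim and CLDN3 was at 0.70 in ubAPE1 cells, and EPCAM (-3.00 and -2.95 log2) and KRT19 (-0.84 and -0.86) were lower in wtAPE1 and ubAPE1 cells than in vector cells. Of the 8, 4 lay below 0 and 4 above 0 in each of these contrasts, and EPCAM and KRT19 were the ones past an adjusted p of 0.05 with limma. Of 4 measured markers of other cell types, CD68 and COL1A1 were above the 25th percentile, at means of 6.49 and 6.28 log2.

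Histone genes were lower with doxycycline in wtAPE1 and vector cells and stood near the median row in ubAPE1 cells. The median response of the 45 members was -0.25 log2 in wtAPE1 cells, 0.03 in ubAPE1 cells and -0.29 in vector cells. Over all rows the medians were 0.01, 0.06 and 0.01. The ubAPE1 value depends on the scaling: the member median there was -0.10 as deposited and -0.22 with the trend with gene length removed, against -0.21 (wtAPE1) and -0.26 (vector) with that trend removed. The response was below 0 for 37 members (82.2%) in wtAPE1 cells, 20 (44.4%) in ubAPE1 cells and 38 (84.4%) in vector cells, against 48.4%, 42.5% and 46.9% of all rows. In the shortest of 20 gene length bins, which holds 42 of the 45 members, these shares were 61.6%, 19.5% and 55.2%. Both the wtAPE1 and the vector response were below 0 for 31 members (68.9%), against 22.1% of all rows. All 3 were below 0 for 13 members (28.9%), against 6.31% of all rows, and all 3 were above 0 for none of the 45. Without centring, 21 members were below 0 in all 3 lines. The share of all rows was not counted without centring. The medians of all rows were then 0.05, -0.07 and -0.04 in wtAPE1, ubAPE1 and vector cells. Members ranged between -1.21 and 0.71 in wtAPE1 cells, -1.19 and 0.75 in ubAPE1 cells, and -1.05 and 0.64 in vector cells. With 1 column per group these differences carry no test. In bulk RNA, fewer cells in S phase and less histone mRNA per cell cannot be told apart.

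**Figure D1:**
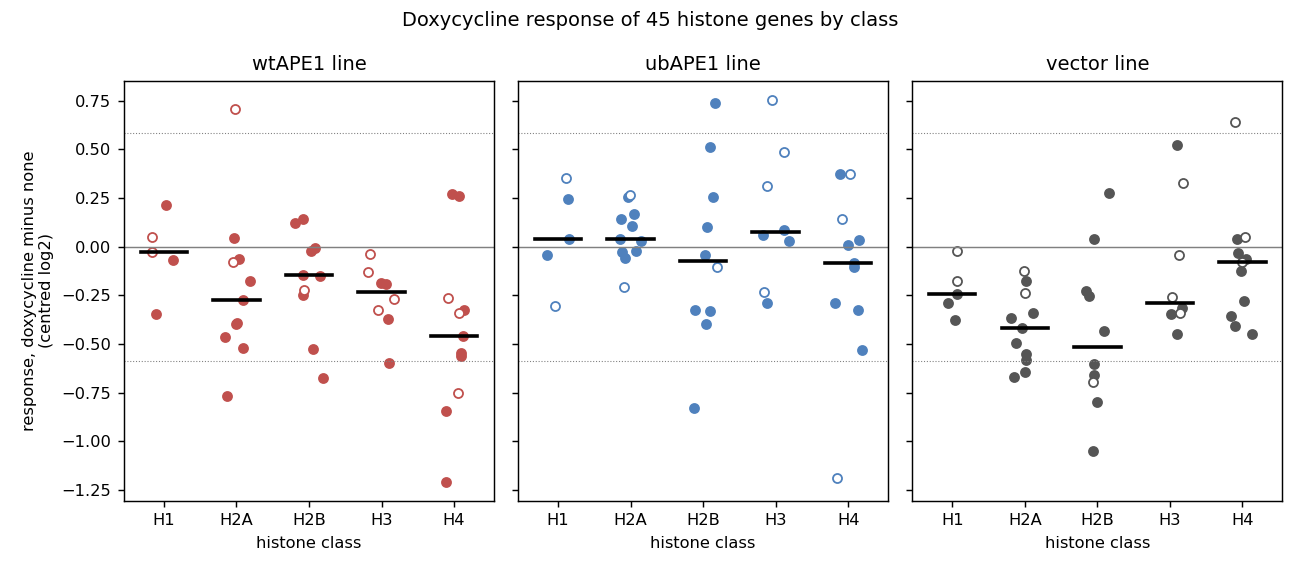
Response to doxycycline (y axis, centred log2, with minus without) of the 45 histone genes by class (x axis) in the 3 lines. Filled points are brighter rows and open points the 12 dim ones, black bars are class medians, and dotted lines mark 1.5-fold. H4 has the lowest class median in wtAPE1 cells (-0.46), H2B in vector cells (-0.52), and in ubAPE1 cells all class medians lie between -0.09 and 0.07.

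Class medians came in a different order in wtAPE1 and vector cells. In wtAPE1 cells the class medians were -0.46 (H4), -0.27 (H2A), -0.23 (H3), -0.15 (H2B) and -0.03 (H1). In ubAPE1 cells they were -0.09 (H4), 0.04 (H2A), 0.07 (H3), -0.07 (H2B) and 0.04 (H1). In vector cells they were -0.08 (H4), -0.42 (H2A), -0.29 (H3), -0.52 (H2B) and -0.24 (H1). Over brighter rows the H4 medians were -0.50, -0.09 and -0.20 in wtAPE1, ubAPE1 and vector cells, and the H2B medians were -0.14, -0.04 and -0.43. This order was not tested. Across the 45 members the correlation of the wtAPE1 with the vector response was 0.05, of the ubAPE1 with the vector response -0.03, and of the ubAPE1 with the wtAPE1 response 0.11. Each response uses its own pair of columns, and these are descriptions over genes that can share probe signal.

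Past 1.5-fold lower were 6 of 45 members in wtAPE1 cells (0.852% of all rows), 2 in ubAPE1 cells (3.17%) and 7 in vector cells (0.826%). Past 1.5-fold higher was 1 member in wtAPE1 cells (0.904% of all rows), 2 in ubAPE1 cells (2.3%) and 1 in vector cells (0.878%). Of the 630 rows in the shortest of 20 gene length bins, 19, 9 and 20 were lower in wtAPE1, ubAPE1 and vector cells. Higher were 14, 63 and 16 of them. Except for H2BC17, the members past 1.5-fold higher were dim rows. These members were H2AC1 (a histone gene known from testis) at 0.71 in wtAPE1 cells, H3C3 at 0.75 and H2BC17 at 0.74 in ubAPE1 cells, and H4C13 at 0.64 in vector cells.

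Among H4 genes, nearly all of which encode one and the same protein, H4C1 had the lowest response of any member in wtAPE1 cells. Its level was 7.38 log2 with and 8.54 without doxycycline in wtAPE1 cells, 7.91 and 8.01 in ubAPE1 cells, and 7.92 and 8.41 in vector cells. Only the wtAPE1 pair was more than 1 log2 apart, a response of -1.21 (0.433 of the level without doxycycline) against 0.03 in ubAPE1 cells and -0.45 in vector cells. H4C4 stood at 7.11 with and 7.91 without doxycycline in wtAPE1 cells, 7.04 and 7.71 in ubAPE1 cells, and 7.29 and 7.62 in vector cells. All 3 columns with doxycycline lay below all 3 without, and the responses were -0.84, -0.53 and -0.28. H4C3, the brightest H4 row, stood at 11.62 with and 12.12 without doxycycline in wtAPE1 cells, 11.64 and 12.10 in ubAPE1 cells, and 11.81 and 12.27 in vector cells. Here too the groups with and without doxycycline did not overlap, with responses of -0.55, -0.32 and -0.41. The share of all rows that separate in this way was not counted. Neither H4C4 nor H4C3 passed 0.05 for a shared doxycycline effect (limma adjusted p = 0.170 and 0.619). H4C2 was at -0.56 in wtAPE1 cells but at 0.01 and -0.03 in ubAPE1 and vector cells. H4C8 was at -0.46, -0.09 and -0.36, and H4C5 at -0.33, -0.10 and 0.04. H4C6 and H4C9 were above 0 in wtAPE1 cells, at 0.26 and 0.27. The dimmest H4 row, H4C13, stood at 2.63 with and 3.34 without doxycycline in wtAPE1 cells, 2.78 and 4.10 in ubAPE1 cells, and 3.88 and 3.28 in vector cells. Its responses of -0.75, -1.19 and 0.64 were past 1.5-fold in every line, and not in one direction.

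**Figure D2:**
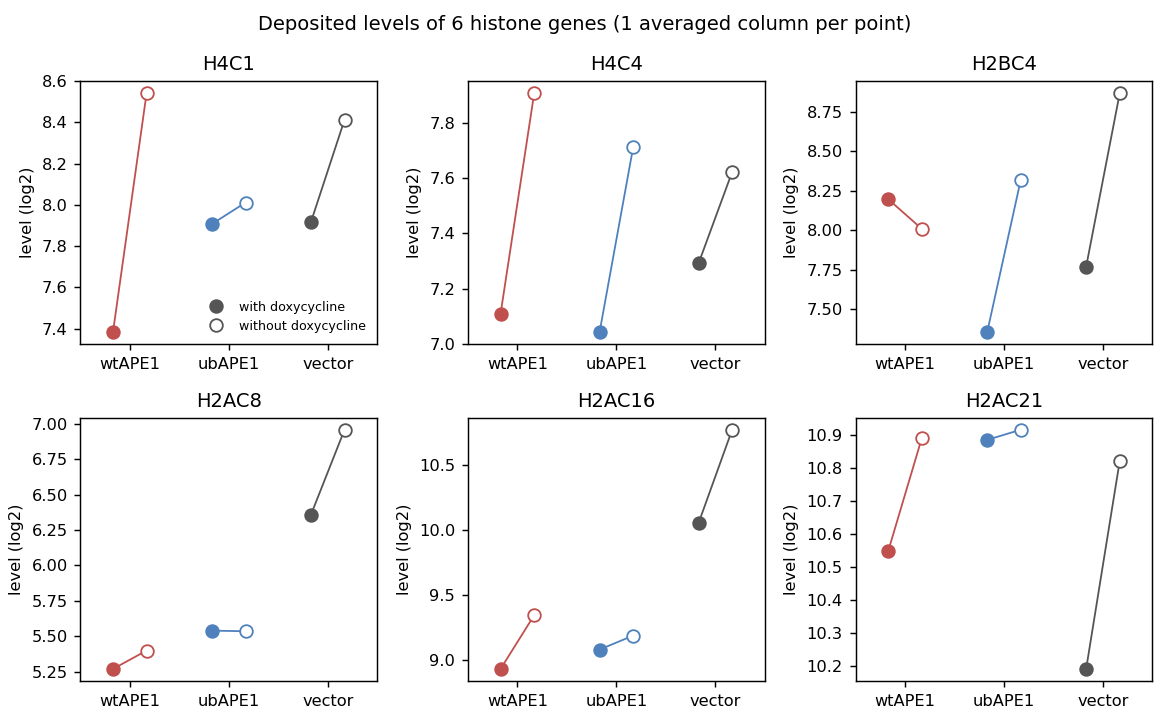
Deposited level (y axis, log2) of 6 histone genes in the 3 lines (x axis), with doxycycline (filled, left) and without (open, right); each point is 1 averaged column. H4C1 is widest apart in wtAPE1 cells, H2BC4 in vector cells, and H2AC8 and H2AC16 are lower in all 4 APE1 columns than in both vector columns.

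H2B genes had their lowest median response in vector cells. H2BC4 stood at 8.20 log2 with and 8.01 without doxycycline in wtAPE1 cells, 7.35 and 8.32 in ubAPE1 cells, and 7.77 and 8.87 in vector cells. It was lower with doxycycline in ubAPE1 and vector cells, at -0.83 and -1.05, and not in wtAPE1 cells, at 0.14. H2BC7, the brightest H2B row, stood at 9.86 with and 9.96 without doxycycline in wtAPE1 cells, 9.70 and 9.73 in ubAPE1 cells, and 9.61 and 10.46 in vector cells. Its responses were -0.15 and 0.10 in wtAPE1 and ubAPE1 cells, against -0.80 in vector cells. H2BC26 responded by -0.68 in wtAPE1 cells and -0.66 in vector cells, but by 0.26 in ubAPE1 cells. H2BC15 and the dim H2BC5 were past 1.5-fold lower in vector cells, at -0.60 and -0.70. H2BC14 was at -0.53, 0.51 and -0.43. H2BC21, whose transcripts are known also in polyadenylated form in differentiated cells, was at 0.12, -0.33 and 0.28 in wtAPE1, ubAPE1 and vector cells. These signs are the reverse of those of 18 members.

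The response was below 0 for 9 of 11 H2A genes in wtAPE1 cells, 4 in ubAPE1 cells and 11 in vector cells. In wtAPE1 cells H2AC1 (0.71) and H2AC25 (0.05) were above 0, and H2AC12 was the H2A gene past 1.5-fold lower. H2AC21, the brightest H2A row, stood at 10.55 log2 with and 10.89 without doxycycline in wtAPE1 cells, 10.89 and 10.92 in ubAPE1 cells, and 10.19 and 10.82 in vector cells. The responses were -0.39, 0.11 and -0.58. H2AC12 was at -0.77, -0.02 and -0.50, and H2AC15 at -0.52, -0.06 and -0.65. H2AC16 was at -0.46, 0.03 and -0.67. These 4 genes were lower with doxycycline in wtAPE1 and vector cells and near 0 in ubAPE1 cells, while H2AC4 and H2AC17 were near 0 in wtAPE1 cells, at -0.07 and -0.08.

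Among H3 genes, the brightest row, H3C2, stood at 11.28 log2 with and 11.60 without doxycycline in wtAPE1 cells, 11.39 and 11.46 in ubAPE1 cells, and 11.32 and 11.82 in vector cells. It was lower with doxycycline in each line as deposited, and its centred responses were -0.37, 0.06 and -0.45. H3C10 was the H3 gene past 1.5-fold lower, at -0.60 in wtAPE1 cells. H3C7 was at -0.19 and -0.29 in wtAPE1 and ubAPE1 cells and at 0.52 in vector cells. The dim H3C3, at 0.75 in ubAPE1 cells, was at -0.32 in wtAPE1 and 0.33 in vector cells. The dimmest row of the class, H3C6, had levels between 3.34 and 4.10 in all 6 columns.

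Linker histones were not past 1.5-fold in any line. H1-4, the brightest of them, stood at 11.72 log2 with and 11.46 without doxycycline in wtAPE1 cells, 11.77 and 11.66 in ubAPE1 cells, and 11.58 and 11.88 in vector cells. Its responses were 0.21, 0.25 and -0.24. H1-2 was at -0.35, 0.04 and -0.29, and H1-3 at -0.07, -0.04 and -0.38. The dim H1-5 lay between 3.59 and 4.06 in all 6 columns.

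Many H2A and H2B genes are transcribed away from each other from one shared stretch of promoter. Of the members, 6 such pairs had starts within 1000 bases on opposite strands. H2AC15 and its partner H2BC15 responded by -0.52 and -0.01 in wtAPE1 cells, but by -0.65 and -0.60 in vector cells. In ubAPE1 cells they were at -0.06 and -0.04. H2AC25 and H2BC26 were at 0.05 and -0.68 in wtAPE1 cells, at 0.25 and 0.26 in ubAPE1 cells, and at -0.34 and -0.66 in vector cells. H2BC4 and its partner H2AC6 were at 0.14 and -0.27 in wtAPE1 cells, at -0.83 and -0.03 in ubAPE1 cells and at -1.05 and -0.36 in vector cells, apart in every line. H2BC17 and H2AC17 were at -0.14 and -0.08 in wtAPE1 cells, at 0.74 and -0.21 in ubAPE1 cells, and at 0.04 and -0.13 in vector cells. H2BC11 and H2AC11 were both below 0 in wtAPE1 cells (-0.25 and -0.40) and vector cells (-0.25 and -0.18). In ubAPE1 cells they were at -0.33 and 0.04. H2BC8 and H2AC8 were at -0.02 and -0.18 in wtAPE1 cells, at -0.40 and 0.14 in ubAPE1 cells, and at -0.23 and -0.55 in vector cells. These are descriptions with no test.

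The ubAPE1 response went with gene length over the whole table, and histone genes are short. The members have a median genomic length of 493 bases, and 42 of 45 fall in the shortest of 20 length bins, which holds 630 rows with 1 symbol. The median response of that bin was -0.06 in wtAPE1 cells, 0.25 in ubAPE1 cells and -0.03 in vector cells. With the median of each length bin subtracted, the median member response was -0.21, -0.22 and -0.26 in wtAPE1, ubAPE1 and vector cells. In ubAPE1 cells, H4C4 was then at -0.78, H4C3 at -0.57, H4C1 at -0.22 and H2AC21 at -0.14. What gives rise to the length trend was not tested.

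**Figure D3:**
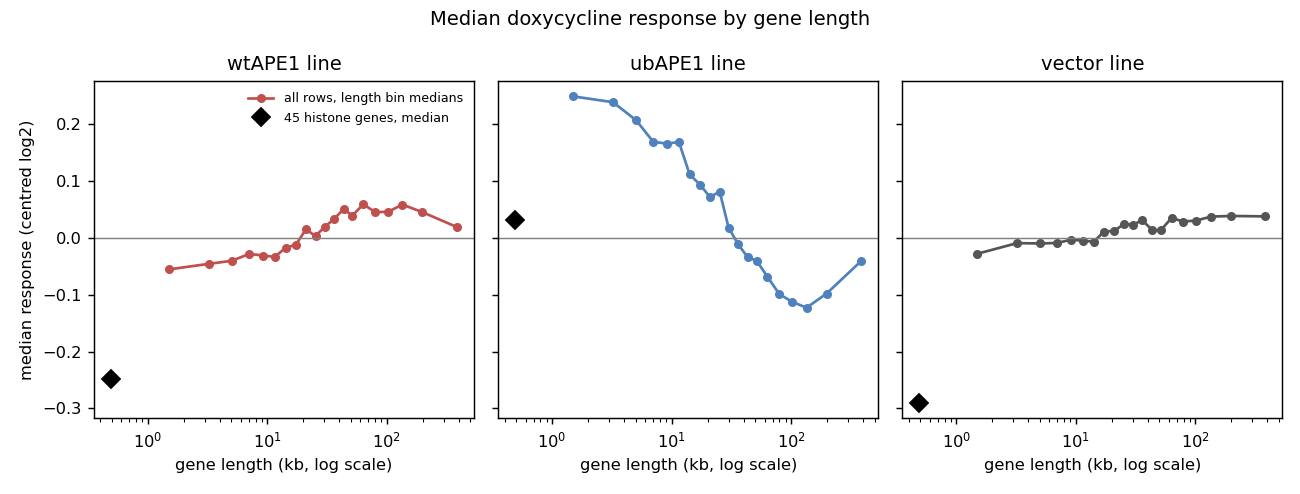
Median response to doxycycline (y axis, centred log2) against gene length (x axis, kb, log scale) in the 3 lines, over 20 bins of 630 rows each. The black diamond is the median of the 45 histone genes. It lies below the shortest bin in every line, at -0.25 against -0.06 (wtAPE1), 0.03 against 0.25 (ubAPE1) and -0.29 against -0.03 (vector).

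The responses of the lines were also set against each other. Pairs of these differences share the columns of 1 line. The median member difference was 0.05 for wtAPE1 minus vector, 0.37 for ubAPE1 minus vector and 0.25 for ubAPE1 minus wtAPE1. For all rows of the shortest length bin, the medians were -0.03, 0.27 and 0.31. With the length bins subtracted, the 3 member medians were 0.08, 0.10 and -0.01. Past 1.5-fold in wtAPE1 minus vector were 4 members higher (3.14% of all rows) and 4 lower (2.5%). In ubAPE1 minus vector 12 were higher (5.14%) and 3 lower (7.58%), and in ubAPE1 minus wtAPE1 9 were higher (5.6%) and 1 lower (7.53%). The shares differ among short genes. Of the 630 rows of the shortest length bin, 37 were higher and 44 lower in wtAPE1 minus vector. In ubAPE1 minus vector 118 of them were higher and 20 lower, and in ubAPE1 minus wtAPE1 115 and 15. With the length bins subtracted these counts became 3 higher in ubAPE1 minus vector, and 4 higher and 7 lower in ubAPE1 minus wtAPE1. As deposited, the last difference had 5 higher and 5 lower. The shares of all rows given here are for centred values without length removal, so these later counts have no like share beside them. H2BC4 was highest in wtAPE1 minus vector, at 1.19, and H4C1 was highest in ubAPE1 minus wtAPE1, at 1.24. None of these carries a test.

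A doxycycline effect shared by the 3 lines was tested with limma over all 15492 rows, with line and doxycycline as terms. The lines stand in for replicates, with 2 residual and 35.1 prior degrees of freedom. A p-value here rests largely on the spread of the other rows. It measures neither replicate error nor how even an effect was across lines. After Benjamini-Hochberg adjustment 0 of 45 members passed 0.05, against 16 of all rows (0.103%). At an unadjusted p under 0.05, 11 members were lower and 0 higher, while 1.54% of all rows were lower. The median member effect was -0.19 log2, against 0.03 over all rows. The effect was below 0 for 35 of 45 members and for 6300 of 15492 rows. H2BC4 (-0.58 ± 0.16, SE; limma adjusted p = 0.270), H4C4 (-0.55 ± 0.14; adjusted p = 0.170) and H4C1 (-0.54 ± 0.16; adjusted p = 0.370) had the lowest values. H4C3 was at -0.43 ± 0.14 (adjusted p = 0.619). H2BC4 passed in some alternatives, at an adjusted p of 0.0394 with 1 row per gene and 0.00250 without the wtAPE1 line, where its effect was -0.94. Without vector cells the dim H4C13 passed instead, at -0.97 (limma adjusted p = 0.00247). Over all alternatives the adjusted p reached 1.0 for H2BC4 and ran between 0.0581 and 1.0 for H4C4 and between 0.0794 and 1.0 for H4C1.

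Differences from vector cells, over both doxycycline states, were largest in a pair of H2A genes. H2AC8 stood at 5.27 log2 with and 5.40 without doxycycline in wtAPE1 cells, 5.54 and 5.54 in ubAPE1 cells, and 6.36 and 6.96 in vector cells. H2AC16 stood at 8.93 and 9.35 in wtAPE1 cells, 9.08 and 9.19 in ubAPE1 cells, and 10.06 and 10.78 in vector cells. In these contrasts the columns with and without doxycycline take the place of replicates of each line, with 2 residual and 35.1 prior degrees of freedom. The p-values therefore rest largely on the spread of the other rows and do not measure replicate error. For both genes, all 4 APE1 columns lay below both vector columns, and H2AC8 lies under the 50th percentile of row means. How many of all rows separate in this way was not counted. H2AC8 fell by 1.17 ± 0.18 log2 (SE) in wtAPE1 cells (2.25-fold lower; limma adjusted p = 1.94e-05) and by 1.01 ± 0.18 in ubAPE1 cells (2.01-fold; adjusted p = 2.23e-04) relative to vector cells. H2AC16 fell by 1.12 ± 0.18 in wtAPE1 cells (2.18-fold; adjusted p = 4.26e-05) and by 1.17 ± 0.18 in ubAPE1 cells (2.25-fold; adjusted p = 2.15e-05).

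These 2 genes are the members past the threshold in either contrast, 2 of 45 lower and 0 higher. Of all rows, 4.86% passed for wtAPE1 cells (3.6% lower) and 3.8% for ubAPE1 cells (2.9% lower), so the share of members is near that of all rows. Both contrasts share the vector columns. The member median was 0.01 log2 in wtAPE1 cells and -0.03 in ubAPE1 cells, against 0.06 over all rows in each. In the shortest length bin the medians were 0.21 and 0.15. With the length trend removed, the member medians were -0.20 and -0.18. H2AC21 was higher in both lines without passing, by 0.37 ± 0.18 (wtAPE1, limma adjusted p = 0.257) and 0.51 ± 0.18 (ubAPE1, adjusted p = 0.133). H2BC8, which shares a promoter stretch with H2AC8, was at -0.13 ± 0.17 and -0.30 ± 0.17 (adjusted p = 0.690 and 0.474). Between the ubAPE1 and wtAPE1 lines 0 members passed, against 0.0839% of all rows. At an unadjusted limma p under 0.05 stood 1 of 45 members and 280 of 15492 rows, which are similar shares.

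**Figure D4:**
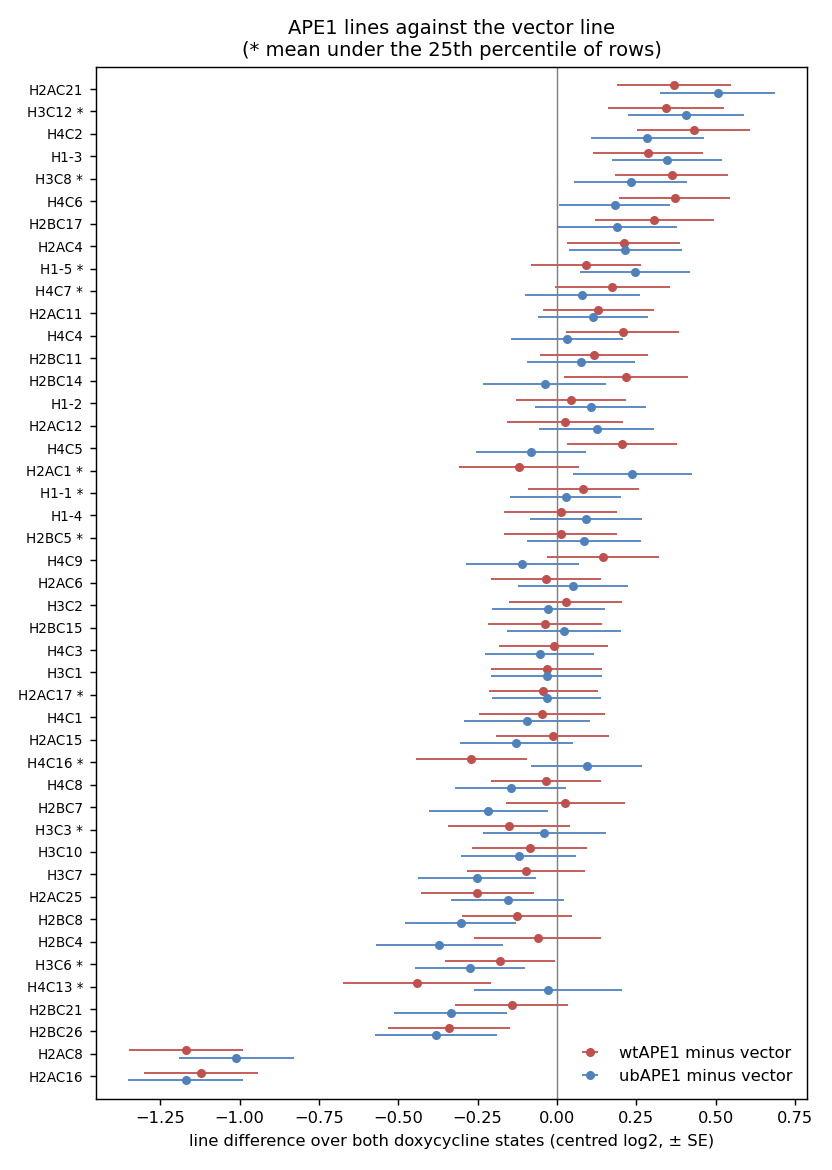
Difference of the wtAPE1 (red) and ubAPE1 (blue) lines from vector cells for each of the 45 histone genes (rows), in centred log2 over both doxycycline states with the limma SE as bars. H2AC8 and H2AC16 lie at or beyond -1.01 in both lines, and the other members lie between -0.44 and 0.51.

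Genes around histone supply were set beside the members. Of 18 measured genes of histone transcription and 3′ end processing, LSM10, a subunit of the U7 ribonucleoprotein, was lower in wtAPE1 than in vector cells (-0.57, limma adjusted p = 0.0446). Of all rows 4.86% passed in that contrast, so 1 gene of 18 is near the share of all rows. LSM10 was at -0.35 in ubAPE1 cells (adjusted p = 0.365), and no other gene of this list passed in any tested contrast. SLBP, the stem-loop binding protein, stood at 7.75 log2 with and 7.87 without doxycycline in wtAPE1 cells, 7.76 and 8.11 in ubAPE1 cells, and 7.88 and 8.20 in vector cells. Its responses were -0.17, -0.21 and -0.28, below 0 in all 3 lines. The 18 genes had median responses of 0.10, -0.14 and -0.04 in wtAPE1, ubAPE1 and vector cells. In wtAPE1 cells 15 of them were above 0 and 3 below. ERI1, a nuclease of histone mRNA decay, was past 1.5-fold lower in ubAPE1 cells (-0.61), against 0.32 and 0.13 in wtAPE1 and vector cells. CDK2 was at 0.57 in wtAPE1 cells, 0.06 in ubAPE1 cells and -0.12 in vector cells.

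The 8 measured replication-independent histones, which are made throughout the cell cycle, had median responses of -0.05, 0.09 and -0.02 in wtAPE1, ubAPE1 and vector cells. H2AX, the variant phosphorylated at DNA breaks, was at -0.06, 0.64 and -0.37. H2AZ1 was at -0.09, -0.10 and 0.06, close to the median row. The 12 measured histone chaperone and acetylation genes had median responses of 0.15, -0.06 and -0.002 in wtAPE1, ubAPE1 and vector cells. In wtAPE1 cells 9 of them were above 0 and 3 below. Of these genes HAT1, which acetylates new H4, was at -0.84 in ubAPE1 cells and -0.01 and 0.14 in wtAPE1 and vector cells. RBBP4, a dim row, was at -0.75 and -1.06 in wtAPE1 and ubAPE1 cells and at 0.03 in vector cells. No member of these lists passed in a tested contrast with limma.

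DNA replication genes (18 measured) had median responses of 0.11, -0.07 and -0.07 in wtAPE1, ubAPE1 and vector cells, and mitosis genes (16 measured) 0.27, -0.26 and -0.12. In wtAPE1 cells, then, replication and mitosis medians were above 0 where the histone median was -0.25. No replication gene was past 1.5-fold. The widest responses were those of RFC4, of the clamp loader, at -0.49, and MCM6, of the replicative helicase, at -0.39, both in ubAPE1 cells. Among mitosis genes NUSAP1 was at 0.52 in wtAPE1 cells, and HMMR (-0.94) and CENPE (-0.65, a dim row) were past 1.5-fold lower in ubAPE1 cells. UBE2C, a ubiquitin-conjugating enzyme of the anaphase-promoting complex, was the one gene of these 2 lists past the threshold, higher in wtAPE1 than in vector cells (0.64, limma adjusted p = 0.0203). Of all rows 4.86% passed in that contrast. The part of cell cycle phase in the histone values was not tested.

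**Figure D5:**
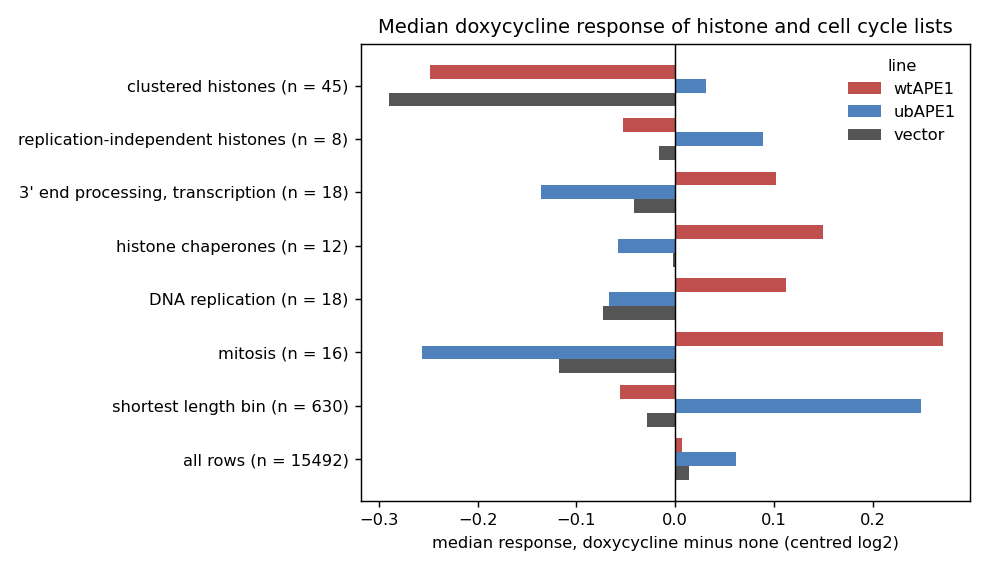
Median response to doxycycline (x axis, centred log2) of the clustered histones, 5 related gene lists, the shortest length bin and all rows, in wtAPE1, ubAPE1 and vector cells. Clustered histones are lowest in wtAPE1 and vector cells (-0.25 and -0.29), where the mitosis list is at 0.27 and -0.12.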

How the data were processed

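The authors deposited log2 expression levels per transcript cluster, 1 column per group, each the mean of 3 biological replicates per the labels. That the scale is log2 follows from the range of the values. The submitters' processing notes name genome build hg18; how rows were summarised, background-corrected, normalized or filtered is not stated there or in the labels. Signal over background is not in these values.

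Genes were named from the platform's probe annotation: 12616 of 15492 rows have 1 symbol, 2031 several and 845 none. All 45 member IDs and symbols matched the RefSeq gene table (GRCh38.p14), which also gave lengths. Near-identical histone genes can share probe signal, so single members are uncertain. Members and lists were chosen with earlier results of these data known.

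Columns were centred on their medians. limma (version 3.58.1, R 4.3.3; lmFit, eBayes) fitted line and doxycycline over all rows, with 2 residual and 35.1 prior degrees of freedom, Benjamini-Hochberg adjustment and a threshold of 0.05. The fit was tested on simulated data. Without replicates, responses were described with a 1.5-fold size rule. Named genes were the 5 marker genes, members past a threshold or the size rule, the widest responses, the brightest and dimmest member of each class and, from other lists, genes past a threshold or 1.5-fold or else the widest. SLBP, CDK2, NUSAP1, H2AZ1 and further members were added after their values were seen. Alternatives were deposited values, quantile normalization, a floor, row filters, 1 row per gene, length bins, other eBayes settings, no line term, each line left out, a 2-fold rule and rows of several clustered histones counted as members. Values already on a log2 scale need no pseudocount, so that alternative was left out.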

Additional observations from a re-analysis of the deposited data

Results flagged for a closer look

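H4C13, a dim row with a mean under the 25th percentile, moved past 1.5-fold in opposite directions between lines. The responses were -0.75 log2 (wtAPE1), -1.19 (ubAPE1) and 0.64 (vector). The difference was not tested.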

How the results depend on the processing

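H2AC8 and H2AC16 kept their direction and stayed past the threshold in both APE1 lines under every alternative that could be fitted, with adjusted p up to 0.0341. The 50th percentile filter drops H2AC8, so 1 member was called in each line there. For the shared doxycycline effect, 0 members passed as reported, 1 with 1 row per gene (H2BC4) and 0 to 1 with a line left out (H2BC4 without wtAPE1 cells, H4C13 without vector cells). With the length trend removed, the member median of wtAPE1 against vector was -0.20, and H4C4 there moved to -0.00698, against 0.21 with all rows centred. Length removal moved the median response in ubAPE1 cells to -0.22 and the median differences to 0.10 (ubAPE1 minus vector) and -0.0115 (ubAPE1 minus wtAPE1).

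The counts past 1.5-fold depended more on the setting. Shares of all rows were not counted for the alternatives, so these member counts have no background there. In wtAPE1 cells 6 members were lower as reported, 11 after quantile normalization and 1 at 2-fold, and the 1 higher member became 0 with a floor, either row filter or 2-fold. In ubAPE1 cells the 2 lower members became 1 with a floor, either filter or 2-fold and 4 with length removed, and the 2 higher became 1 with a floor or the 25th percentile filter and 0 with the 50th, length removal or 2-fold. In vector cells 7 lower became 1 at 2-fold, and 1 higher became 0 with a floor, either filter or 2-fold. For wtAPE1 minus vector, 4 lower became 2 with a floor or either filter and 1 at 2-fold, where 4 higher also became 1. For ubAPE1 minus vector, 12 higher became 7 with the 50th percentile filter, 3 with length removed and 0 at 2-fold, where 3 lower became 1. For ubAPE1 minus wtAPE1, 1 lower became 5 as deposited, 4 after quantile normalization, 7 with length removed and 0 at 2-fold. The 9 higher there became 5 as deposited, 4 with the 50th percentile filter or length removed and 3 at 2-fold.

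Over all rows, the wtAPE1 line against vector cells gave 753 calls (196 higher, 557 lower) as reported, 322 (13 and 309) as deposited, 474 (69 and 405) after quantile normalization and 246 (53 and 193) with the 50th percentile filter, and up to 1005 (296 and 709) with a floor. The ubAPE1 line against vector cells gave 589 (140 and 449), 226 (10 and 216), 380 (60 and 320), 177 (49 and 128) and 729 (189 and 540) in the same order. The shared doxycycline effect gave 16 calls as reported and 0 to 34 under the alternatives, and ubAPE1 against wtAPE1 gave 13 and 0 to 20. The cause of these shifts was not tested. The line term of the fit already pairs the columns with and without doxycycline of each line, and without it the shared doxycycline effect gave 0 calls over all rows with limma (255 rows at an unadjusted p under 0.05). Replicates within a group could not be paired, since each group is 1 column and the labels give no replicate numbers. With 1 averaged column per group, no spread between replicates is known.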

Other observations

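A further 4 rows name a clustered histone gene among several symbols and so belong to no single gene. The row of H3C4 and H2AC7 stood at 7.92 log2 with and 7.93 without doxycycline in wtAPE1 cells, 8.03 and 8.15 in ubAPE1 cells, and 7.10 and 7.99 in vector cells. The vector column with doxycycline was the lowest of the 6, and the responses were -0.06 and 0.02 in wtAPE1 and ubAPE1 cells, against -0.84 in vector cells. This row was higher in ubAPE1 than in vector cells over both states (0.65, limma adjusted p = 0.0386), and was at 0.53 in wtAPE1 cells (adjusted p = 0.104). The row of H2BC12 and H2BC12L had responses of -0.46 (wtAPE1), -0.62 (ubAPE1) and -0.13 (vector). The other two rows were dim, with means of 3.86 and 2.00 log2.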
